A study of Mus musculus with 15 samples.

Results

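The 2′-5′ oligoadenylate synthetase promoters of the mouse were followed by ChIP-MNase, which first pulls down long pieces of chromatin with an antibody and only then cuts them to nucleosomes with micrococcal nuclease. The 8 genes Oas1a, Oas1b, Oas1c, Oas1g, Oas2, Oas3, Oasl1 and Oasl2 were found by matching the RefSeq identifiers of the promoter annotation to gene symbols, which gave 8 promoter rows, 1 for each gene, of 25881 in all. Each had a coverage score above 100, as did 13559 promoters of the series, so none had to be set aside as poorly covered. Occupancy was given in 200 bins of 10 bp from −1000 to 1000 bp of the transcription start site (TSS) in 15 libraries. H3K4me1 chromatin came from dendritic cells (DCs), grown in vitro from bone-marrow progenitor lines with GM-CSF, either non-stimulated or given 100 ng/ml LPS for 1 h, and from 3T3 fibroblasts, an immortalised embryonic line, either non-stimulated or given 5 ng/ml TNF-α for 1 h. Each of these 4 sets pools 2 replicates. A further 8 single H3K4me1 libraries came from control fibroblasts and from fibroblasts with a Brg1/Brm knock-down (BAF knockdown, a retroviral shRNA in GFP-sorted cells), non-stimulated or after TNF-α, with 2 libraries in each of the 4 groups. The remaining 3 libraries were recovered from TNF-α-stimulated fibroblasts with antibodies against RNA pol-II S7P (2 libraries) and S5P (1 library). These libraries hold no transcript levels, and neither the knockdown nor the response to the stimulus was checked here.

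Oligoadenylate synthetases are cytosolic sensors of double-stranded RNA that are strongly induced by interferon. On binding such RNA they join ATP into short 2′-5′-linked oligoadenylates, a second messenger that leads to the breakdown of viral and cellular RNA. Their promoters are classical targets of the interferon-stimulated response element (ISRE), a DNA motif through which interferon signalling acts on transcription. The mouse Oas1 gene was duplicated many times, and Oas1a and Oas1g are the copies known to encode active enzymes. Oas1b is the flavivirus resistance gene, truncated in most laboratory strains, whereas Oas2 and Oas3 carry several synthetase units in 1 protein. Oasl1 and Oasl2 are synthetase-like proteins with ubiquitin-like domains at their end, and Oasl1 is known as an inhibitor of Irf7 translation.

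All 8 genes lie on chromosome 5 in the mm9 build. The Oas1, Oas2 and Oas3 promoters form 1 cluster with 157.677 kb between the starts of Oas2 and Oas1a, and the starts of Oasl1 and Oasl2 lie 26.306 kb apart in a separate place. Every annotated start fell in the first exon, in the untranslated part, of the GENCODE model of the same gene, at most 2 bp from its start. The stretches below run from 120 bp before to 29 bp after the TSS base, which is counted as 0, and are read 5′ to 3′ along each gene from the mm9 sequence. They are shown because they hold the ISRE matches to which occupancy is set beside further on, and the capitals mark GAAA followed by any 2 bases and GAAA again, on either strand.
Oas1a, chr5:121357505-121357654, minus strand: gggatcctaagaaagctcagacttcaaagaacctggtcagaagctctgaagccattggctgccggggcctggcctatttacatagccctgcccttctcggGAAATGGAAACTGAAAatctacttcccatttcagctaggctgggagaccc
Oas1g, chr5:121337578-121337727, minus strand: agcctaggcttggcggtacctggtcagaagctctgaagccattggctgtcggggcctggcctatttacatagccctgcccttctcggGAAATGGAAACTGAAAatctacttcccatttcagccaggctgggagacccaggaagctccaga
Oas1b, chr5:121262525-121262674, plus strand: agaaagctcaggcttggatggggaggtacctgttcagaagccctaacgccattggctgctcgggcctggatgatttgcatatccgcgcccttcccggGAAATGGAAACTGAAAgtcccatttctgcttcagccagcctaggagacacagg
Oas1c, chr5:121262494-121262643, minus strand: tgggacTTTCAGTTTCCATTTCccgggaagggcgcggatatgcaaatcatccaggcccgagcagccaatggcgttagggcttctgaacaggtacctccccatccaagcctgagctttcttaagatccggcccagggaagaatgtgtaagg
Oas2, chr5:121199828-121199977, minus strand: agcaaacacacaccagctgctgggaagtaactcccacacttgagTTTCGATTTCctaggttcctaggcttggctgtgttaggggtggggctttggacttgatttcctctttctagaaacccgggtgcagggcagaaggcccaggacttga
Oas3, chr5:121227639-121227788, minus strand: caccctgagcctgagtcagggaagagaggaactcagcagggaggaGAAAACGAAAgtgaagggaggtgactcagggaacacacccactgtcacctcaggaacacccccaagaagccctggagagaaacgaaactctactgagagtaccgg
Oasl1, chr5:115373130-115373279, plus strand: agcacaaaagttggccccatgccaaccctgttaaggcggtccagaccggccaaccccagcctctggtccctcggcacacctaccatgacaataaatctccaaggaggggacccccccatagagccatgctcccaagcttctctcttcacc
Oasl2, chr5:115346824-115346973, plus strand: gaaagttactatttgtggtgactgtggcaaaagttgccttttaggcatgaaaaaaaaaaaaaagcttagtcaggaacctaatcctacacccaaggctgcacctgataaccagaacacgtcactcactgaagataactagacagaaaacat
Oas1d, chr5:121364708-121364857, plus strand: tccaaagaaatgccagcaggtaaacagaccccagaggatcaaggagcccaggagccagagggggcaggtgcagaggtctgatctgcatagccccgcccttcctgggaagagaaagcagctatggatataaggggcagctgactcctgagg
The last of these, Oas1d, is no member of the group. It is shown as a copy of Oas1 without an ISRE match from 250 bp before to 50 bp after its annotated start. That start lies 283 bp from the start of its GENCODE model.

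Oas1a, Oas1b and Oas1g held the same 16 bases, GAAATGGAAACTGAAA, in which 2 ISRE matches overlap, starting at −20, −23 and −33 bp respectively. The Oas1c stretch overlaps the Oas1b one on the opposite strand, since both genes start head to head 122 bp apart, and the same double site there begins at −114 bp. Oas2 had 1 match at −76 bp on the opposite strand and Oas3 had 1 at −75 bp. No match was found from 250 bp before to 50 bp after the start of Oasl1 or Oasl2, in which the closest sequence to the double site within 1000 bp differed at 5 and 3 bases. In all, 6 of the 8 promoters held an ISRE match in this window, beside 3.46% of 25738 promoters whose sequence could be read, and 0.326% of those held at least 2 matches. The 4 other Oas1 genes of the cluster (Oas1d, Oas1e, Oas1f and Oas1h) had none. The letters TTCNNNGAA, known as the gamma-activated site, were found only in Oas1a among the 8, at −98 bp, against 7.81% of promoters, and TATAAA only in Oasl2, at −188 bp on the opposite strand, against 12.7%. None of the 8 promoters was a CpG island (a CpG frequency over 0.6 of that expected and GC over 50% within 200 bp of the TSS), whereas 56.2% of covered promoters were. Their ratios of observed to expected CpG lay between 0.17 at Oas2 and 0.51 at Oas1c.

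In the annotation's expression before stimulation, taken from other samples and used only within a cell type, Oasl2 and Oas1a stood at 1.82 and 1.75 times the mean of all promoters in DCs. Oas1g followed at 1.39 times, Oasl1 at 0.857, Oas2 at 0.704, Oas3 at 0.677 and Oas1c at 0.173 times. The Oas1b row was near the floor at 0.0022 times the mean, although a further row that starts 3 bp away, and whose identifier matched no symbol, gave 0.227 times. In fibroblasts Oas1a, Oas1g and Oas2 were listed at 0, and the highest of the other members, Oasl2, reached 0.0046 times the mean. With activity set at 0.02 times the mean, 7 of the 8 promoters were thus active in DCs and none in fibroblasts. By this threshold 8373 of the 13559 covered promoters were active in DCs and 6458 in fibroblasts. Among markers of each cell type, all 11 DC genes had the higher relative expression in DCs and 9 of 10 fibroblast genes in fibroblasts, the exception being Fn1, which encodes fibronectin (12.2 and 11.9 times the mean).

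Patterning was used as the main measure: the sum over bins of the mean profile of active promoters, rescaled and centred, times the deviation of a promoter's occupancy from its own mean. A high level means a nucleosome-depleted region (NDR) before the TSS with arrayed nucleosomes around it. In non-stimulated DCs active promoters had a median level of 8.31 and inactive ones of 0.910, and in non-stimulated fibroblasts these were 10.5 and 0.559. Inactive here means listed at 0, which held for 3225 covered promoters in DCs and 2301 in fibroblasts. Promoters above 0 but under the activity threshold belong to neither class. Among the members these were Oas1b in DCs and Oas1b, Oas1c, Oas3, Oasl1 and Oasl2 in fibroblasts. Depletion was also read as the NDR ratio, which sets mean occupancy between −150 and 0 bp over that between −1000 and −500 bp and had a median of 0.489 for the active class and 0.919 for the inactive class in non-stimulated DCs. The occupancies carry no read counts, so that depth is unknown. The share of the 200 bins with any fragment served in its place and averaged 82.0% to 90.2% in the pooled sets and 63.5% to 78.1% in the 8 single libraries. Mean occupancy was 1.61 to 1.63 in the former and 0.791 to 0.804 in the latter, and patterning grows with it, so that levels from both are compared below by their percentile among the covered promoters of the same library.

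**Figure D1:**
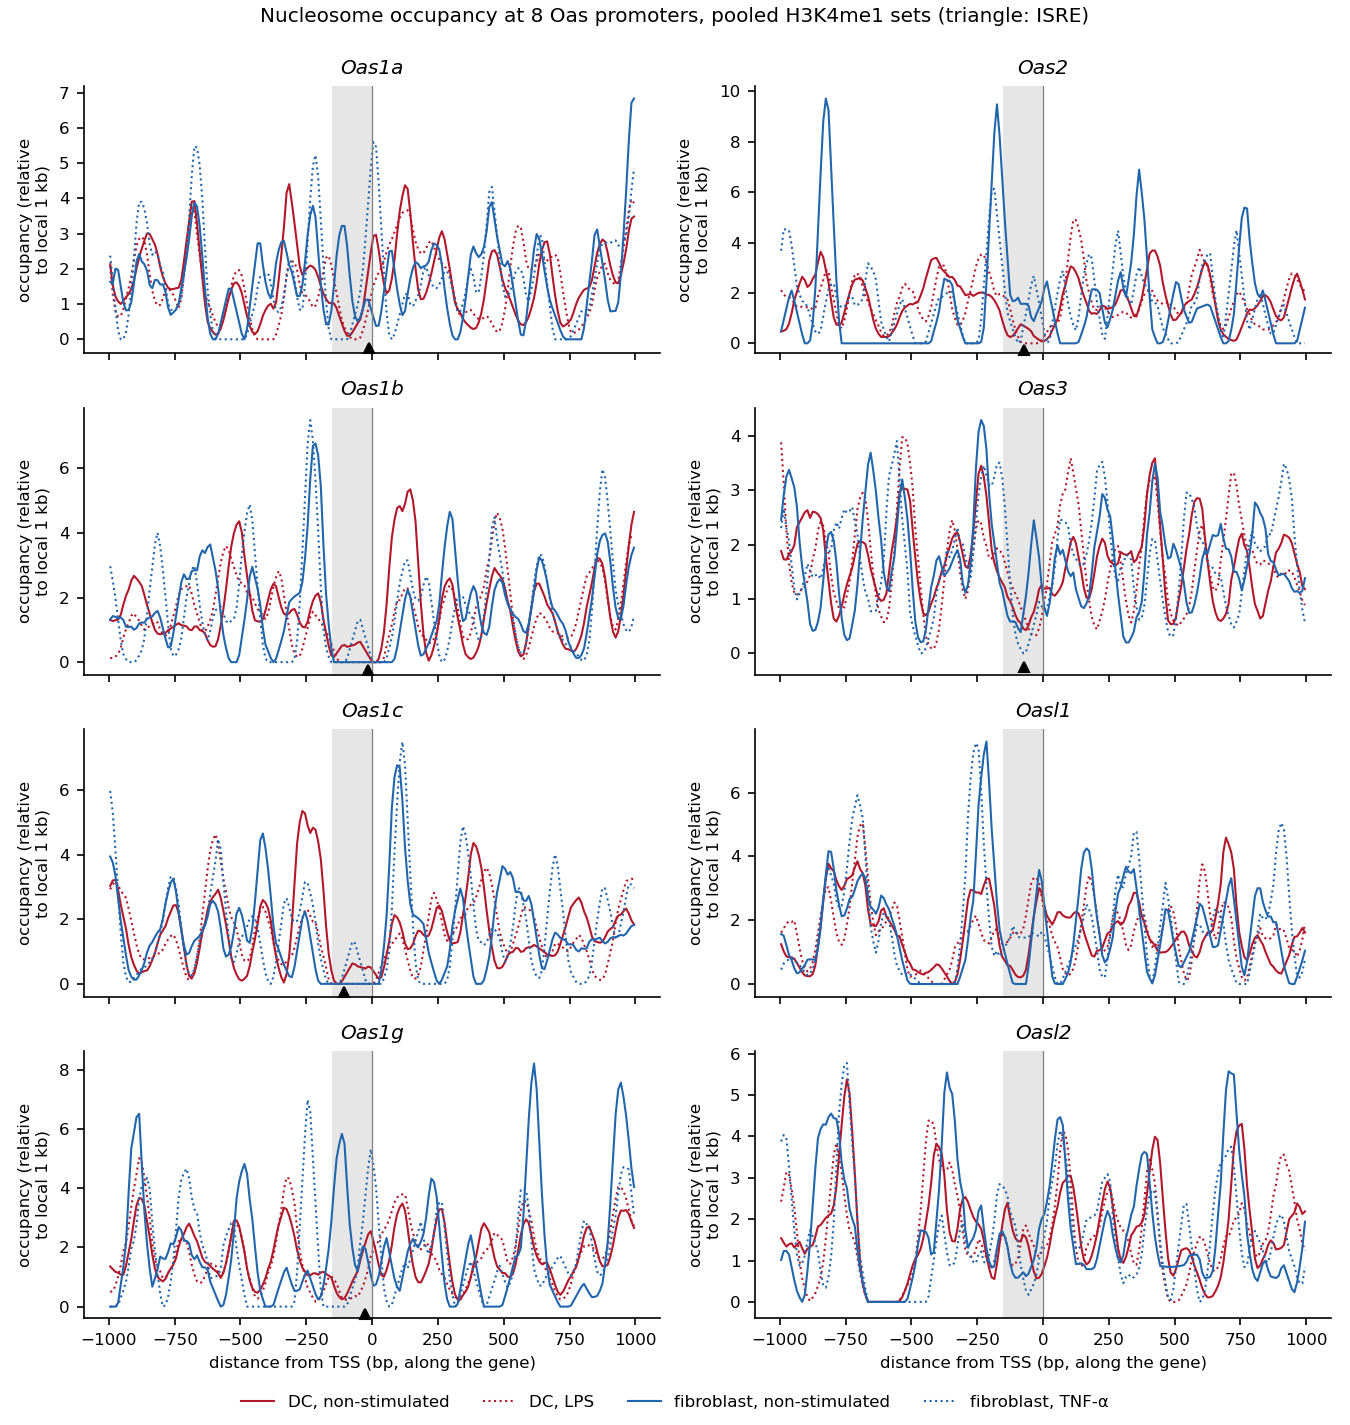
Nucleosome occupancy, relative to the local 1 kb, is plotted against distance from the TSS in bp for the 8 promoters in the 4 pooled H3K4me1 sets, with DCs in red and fibroblasts in blue, non-stimulated as solid and stimulated as dotted lines. The grey band marks −150 to 0 bp and the triangle the centre of the ISRE matches. Oas1b and Oas1c show an empty or nearly empty region in LPS-treated DCs and non-stimulated fibroblasts and a low one in the other sets. The band at Oas2 is low in DCs (NDR ratio 0.27) and not in non-stimulated fibroblasts (1.36).

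The head-to-head pair of Oas1b and Oas1c had the lowest NDR ratios of the 8 promoters in each of the 4 pooled sets. The NDR ratio at Oas1b was 0.26 in non-stimulated DCs, 0.02 after LPS, 0 in non-stimulated fibroblasts and 0.32 after TNF-α. At Oas1c it was 0.25, 0 (all 15 bins of the NDR were empty), 0 and 0.27 in the same order. In non-stimulated fibroblasts no fragment was found over 230 bp, from −150 to 80 bp of the Oas1b start, a stretch that holds both TSSs and the double ISRE, and in LPS-treated DCs over 170 bp, from −130 to 40 bp. These 2 promoters share 1878 bp of their windows and are 1 piece of chromatin read in 2 directions, so that their values are not independent.

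Patterning at Oas1b was 25.8 in non-stimulated DCs, 19.1 after LPS, 16.9 in non-stimulated fibroblasts and 17.3 after TNF-α. The DC values stood at the 97.1st and, after LPS, the 87.9th percentile and the fibroblast values at the 81.3rd and 80.8th. At Oas1c it was 8.74 and 9.35 in the 2 DC sets against 23.7 and 23.4 in the 2 fibroblast sets. In these pooled sets the direction read as Oas1c was the better patterned one in fibroblasts and that read as Oas1b in DCs. The 8 single fibroblast libraries showed no such preference, with a mean level of 8.82 in both directions. The pooled DC and fibroblast sets overlapped at neither gene. Both DC sets lay above both fibroblast sets at 18.2% of covered promoters and below them at 20.6%. The first nucleosome downstream (+1) was placed at 105 to 135 bp of Oas1b and at 85 to 115 bp of Oas1c in the 4 pooled sets.

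The single fibroblast libraries also gave a positive level at this pair in 8 of 8 libraries. In fibroblasts both genes were under the activity threshold but not listed at 0. Oas1c stood at 0.0041 times the mean, the Oas1b row at 9.9e-05 times and the further row at its start at 0.0018 times. For Oas1b the levels were 1.96 and 5.81 in non-stimulated control cells, 12.9 and 6.78 in control cells after TNF-α, 3.599 and 12.9 in non-stimulated knockdown cells, and 14.4 and 12.2 in knockdown cells after TNF-α. Oas1c gave 3.09 and 3.57, 8.88 and 13.4, 5.18 and 10.0, and 12.7 and 13.7 in the same groups. Percentiles ran from 50.5 to 96.4 at Oas1b and from 55.6 to 93.9 at Oas1c, above the library's median each time. Depletion was less uniform. The mean profile of the 4 non-stimulated libraries had an NDR ratio of 0.542 at Oas1b and 0.559 at Oas1c, and that of the 4 libraries after TNF-α one of 0.041 and 0.077. In the 2 non-stimulated control libraries it was 0.688 and 0.679, near the medians of 0.598 and 0.736 over all covered promoters in these libraries.

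Oas1a and Oas1g, the copies with known enzyme activity, had lower NDR ratios in DCs than in fibroblasts. At Oas1a the NDR ratio was 0.45 in non-stimulated DCs, 0.33 after LPS, 1.09 in non-stimulated fibroblasts and 0.67 after TNF-α. Oas1g had ratios of 0.59, 0.32, 1.55 and 0.72. Patterning at Oas1a was 12.4 and 11.1 in the DC sets and 0.66 and −4.02 in the fibroblast sets. Oas1g had levels of 6.64 and 12.3 in DCs and −9.69 and −1.15 in fibroblasts. The 2 DC sets thus lay above both fibroblast sets at each of these promoters, as at 18.2% of covered promoters.

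These 2 promoters could not be read apart in full. At Oas1a 74% of the bins and at Oas1g 75% lay mostly in 36-base stretches that recur elsewhere within 10 kb of an Oas promoter. Up to 2 mismatches were allowed, and these bins included the one with the double ISRE at both genes. The share was 0% at Oas2 and 5.5% to 28% at the other 5 members. Of all 36-base stretches in the window, 47.4% at Oas1a and 54.1% at Oas1g recurred. With the double sites aligned, 128 bins were repeated in both, and their profiles over these bins correlated with Pearson's r of 0.48 to 0.71 in the 4 pooled sets, a description across neighbouring bins. Over the 31 bins repeated in neither, r was 0.67 and 0.57 in non-stimulated DCs and TNF-α-stimulated fibroblasts and −0.106 and −0.125 in the other sets. In the 8 single libraries fragments were found in only 40.5% of the repeated bins of Oas1a against 76.0% of its other bins, and at Oas1g in 46.2% against 79.2%. In the pooled sets the repeated bins were as full as the others, at 94.8% against 90.9% for Oas1a. What part shared reads have in the levels of these 2 promoters was not tested.

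**Figure D2:**
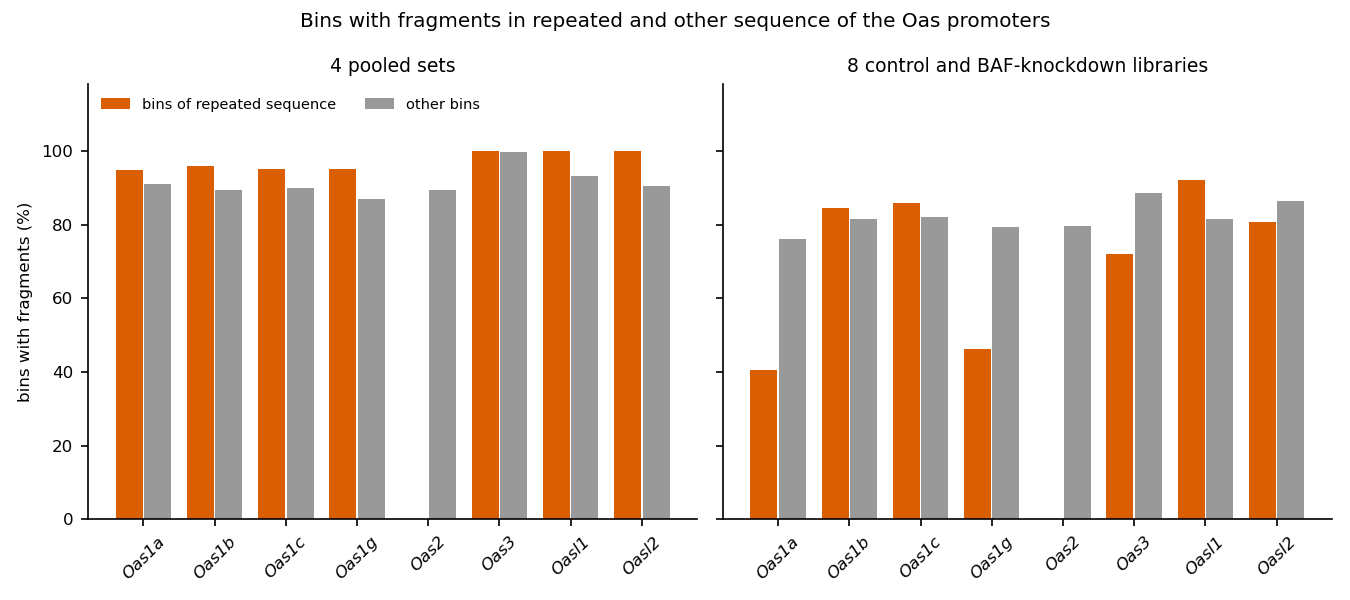
The share of bins with fragments (%) is plotted for each promoter, separately for bins of repeated sequence (orange) and other bins (grey), as the mean over the 4 pooled sets (left) and over the 8 control and BAF-knockdown libraries (right). Repeated bins of Oas1a and Oas1g were covered at 40.5% and 46.2% in the single libraries, and Oas2 has no repeated bin and so no orange bar.

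In the single libraries, patterning at Oas1a ran from −3.37 to 4.98 with a median of 0.64, and at Oas1g from −2.64 to 4.21 with a median of 1.05. Oas1a stood at the 16.9th to 66.0th percentile, under the 68.1st and 73.3rd of the DC sets. For Oas1g the range of 21.3 to 59.6 overlapped the 54.1 and 72.0 of DCs.

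Oas2, which encodes a synthetase of repeated units, had no sequence shared with other Oas promoters and gave the widest gap between cell types. Its NDR ratio was 0.27 in non-stimulated DCs and 0.28 after LPS, against 1.36 in non-stimulated fibroblasts and 0.68 after TNF-α. Patterning was 14.4 and 19.1 in DCs, and −6.68 and 4.35 in fibroblasts. The DC sets were at the 79.1st and 88.1st percentile and the fibroblast sets at the 10.9th and 44.2nd. Single fibroblast libraries scattered over nearly the whole range. They gave 8.09 and 3.30 in non-stimulated control cells, −1.05 and 4.25 in control cells after TNF-α, −8.00 and −2.74 in non-stimulated knockdown cells, and 3.24 and 4.43 in knockdown cells after TNF-α. One of the non-stimulated control libraries reached the 85.1st percentile, within the range of the DC sets.

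Oas3, the largest of the synthetases, had NDR ratios of 0.43 and 0.45 in DCs and 0.60 and 0.38 in fibroblasts, where the medians over all covered promoters were 0.647 and 0.615 in DCs and 0.633 and 0.590 in fibroblasts. Of the 8 control and knockdown libraries, 7 gave ratios of 0.672 to 1.20, above every pooled set, and the first control library after TNF-α gave 0.0071. Patterning was 6.25 and 8.96 in DCs and 1.599 and 8.43 in fibroblasts, so the sets overlapped. In the single libraries it was 2.18 and 6.60 in non-stimulated control cells, 17.7 and 6.002 in control cells after TNF-α, 3.12 and −3.61 in non-stimulated knockdown cells, and 1.72 and 0.80 in knockdown cells after TNF-α. The first control library after TNF-α, at the 99.0th percentile, stood far above the other 7.

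The synthetase-like genes had little patterning where they were expressed. Oasl1 gave 3.28 in non-stimulated DCs and −5.49 after LPS, with NDR ratios of 0.58 and 1.07, against 12.6 and 6.65 in fibroblasts, with ratios of 0.54 and 0.76. Thus Oasl1, active in DCs and not in fibroblasts by the annotation, was at a lower level in both DC sets than in both fibroblast sets. The same order was found at 20.6% of covered promoters. Its single fibroblast libraries ran from −5.35 to 3.59 with a median of −0.76, at the 7.61st to 56.1st percentile, so that the high pooled fibroblast level of the 71.1st percentile was not met by any of them. Oasl2, the member with the highest relative expression in DCs, had levels of 1.51 and −0.32 in DCs and −0.24 and −0.65 in fibroblasts and NDR ratios of 0.98, 1.17, 0.72 and 0.80. All 4 pooled sets lay between the 27.4th and 33.9th percentile, and 7 of 8 single libraries were below 0. An empty stretch further upstream, from −670 to −550 bp, was shared by the 4 pooled sets of Oasl2. Of the 11 other libraries, only 4 lacked fragments over much of this stretch.

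**Figure D3:**
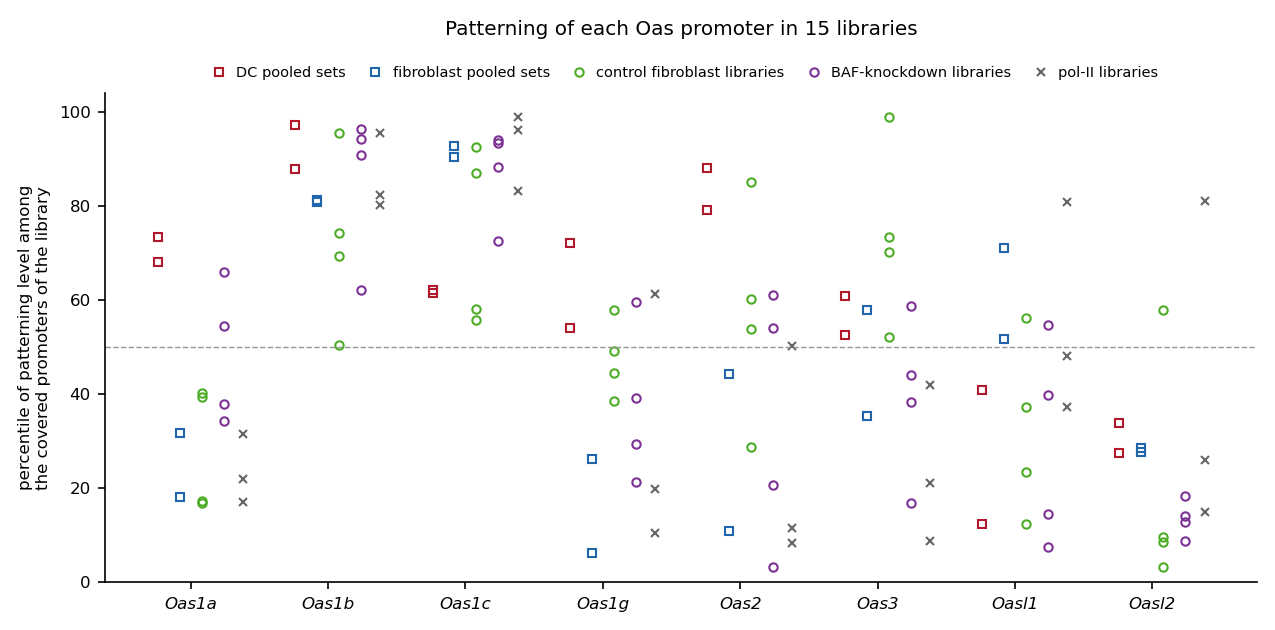
The percentile of the patterning level among the 13559 covered promoters of the same library is plotted for each promoter, with squares for pooled sets, circles for single H3K4me1 libraries and crosses for pol-II libraries, and a dashed line at 50. Oas1b and Oas1c lie above the line in every library, while the 15 values of Oas2 range from 3.27 to 88.1.

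Whether patterning differed between cell types was tested with limma for each of the 13559 covered promoters, with the 2 states of a cell type standing in for its spread because the pooled sets have no separate replicates. No promoter passed an adjusted p of 0.05 (0% called), and 1088 had an unadjusted p under 0.05. Among the members none passed either, and 4 of 8 had an unadjusted p under 0.05, where 8.02% of all promoters did. These 4 were Oas1a, Oas1c, Oas1g and Oas2. Since Oas1a and Oas1g could not be read apart in full, they are not 4 independent promoters. The DC-minus-fibroblast difference was 17.9 ± 6.28 (SE) at Oas2, from means of 16.8 and −1.16 (limma, unadjusted p = 0.0235). It was 14.9 ± 6.07 at Oas1g (9.49 against −5.42, limma, unadjusted p = 0.0425) and 13.4 ± 5.58 at Oas1a (11.7 against −1.68, limma, unadjusted p = 0.0462). Oas1c differed the other way, by −14.5 ± 5.44 (9.04 against 23.5, limma, unadjusted p = 0.0314). Each of these 4 had an adjusted p of 0.618 in limma. With depletion in place of patterning (−log2 of the NDR ratio, 0.1 added to both means, so that deeper is higher), the Oas1c difference was 0.11 and no longer below 0 (limma, unadjusted p = 0.940). The remaining members had differences of −10.8 ± 6.11 at Oasl1, 5.35 ± 5.72 at Oas1b, 2.59 ± 5.77 at Oas3 and 1.04 ± 5.46 at Oasl2. Over the 8 promoters the median difference was 3.97 and 6 were above 0, beside a median of −0.42 over all covered promoters. The 8 are not independent either, since Oas1b and Oas1c are also 1 piece of chromatin. Both DC sets lay above both fibroblast sets at 4 members (Oas1a, Oas1b, Oas1g and Oas2), as at 18.2% of covered promoters, and below them at 2 (Oas1c and Oasl1), as at 20.6%. With all 12 H3K4me1 libraries scaled to their means, 10 of them from fibroblasts, the Oas1a, Oas1g and Oas2 differences remained above 0, and the smallest unadjusted p of the 3, at Oas1a, was 0.0459 (limma, adjusted p = 0.962). With the fibroblast mean profile used for both cell types, the differences were 17.2 at Oas2, 12.2 at Oas1g, 12.1 at Oas1a and −13.7 at Oas1c, while that at Oas1b was 1.75 in place of 5.35.

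Whether TNF-α for 1 h altered the promoters was tested in the 8 single libraries, with knockdown as a second term. No promoter passed an adjusted p of 0.05 in limma (0% called, 770 or 5.68% at an unadjusted p under 0.05), and 1 of the 8 members had an unadjusted p under 0.05. Among the members Oas1c had the smallest p, with a difference of 6.70 ± 1.90 (SE, 95% interval 2.21 to 11.2, limma, unadjusted p = 0.00970, adjusted p = 0.867). The 4 non-stimulated libraries gave 3.09 to 10.0 there and the 4 stimulated ones 8.88 to 13.7, so that they overlapped by 1 knockdown library. Oas1b, the same chromatin read the other way, had a difference of 5.51 ± 2.64 (limma, unadjusted p = 0.0754). In the pooled sets the corresponding levels before and after TNF-α were 23.7 and 23.4 at Oas1c and 16.9 and 17.3 at Oas1b, with no such step. With depletion in place of patterning the Oas1b difference was 1.78 ± 0.606 (limma, unadjusted p = 0.0235, adjusted p = 0.79). The pooled fibroblast sets went the other way on this measure. There the NDR ratio was 0 before and 0.32 after TNF-α at Oas1b, and 0 and 0.27 at Oas1c. The other differences in patterning ran from −0.76 ± 2.69 at Oasl1 to 4.48 ± 3.21 at Oas3, and the latter was 1.55 without the first control library after TNF-α. The median over the 8 was 2.51 and 7 were above 0, against a median of 0.23 over all covered promoters, and no member had its 4 stimulated libraries all above or all below the other 4 (1.59% and 1.05% of covered promoters did). The 8 differences are not independent, since Oas1b and Oas1c are 1 piece of chromatin and Oas1a and Oas1g could not be read apart in full.

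The BAF knockdown, which targets the catalytic subunits Brg1 and Brm of the BAF nucleosome remodeller, gave no promoter past the test in limma at an adjusted p of 0.05 (0% called, 792 or 5.84% at an unadjusted p under 0.05), and again 1 member was under 0.05 before adjustment. At Oas3 the level was lower in knockdown cells, with a mean of 0.51 against 8.12 in control cells and a difference of −7.61 ± 3.21 (SE, limma, unadjusted p = 0.0498, adjusted p = 0.841). Here 1 library moved the value by over 1.5 times, since without the high control library after TNF-α the difference was −4.68 ± 2.40 (limma, unadjusted p = 0.0998). The others ran from −4.41 ± 3.32 at Oas2 to 3.94 ± 2.64 at Oas1b, and both ends depended on single libraries. Oas2 gave −2.03 without the first non-stimulated knockdown library, −2.12 without the first non-stimulated control library and −6.80 without the first control library after TNF-α, and its sign turned with depletion (0.37). Oas1b gave 1.99 without the second non-stimulated knockdown library. The median was −0.25 over the 8 and 0.054 over all covered promoters. No member had its 4 knockdown libraries all above or all below the 4 control libraries, as 1.47% and 1.5% of covered promoters did. The names of the deposited tables carry 4U for replicate 1 of both knockdown groups and 12U for the other 6 libraries, read here as units of nuclease. Among those 6 alone the Oas3 difference was −9.52 ± 4.03 (limma, unadjusted p = 0.0654).

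Whether the response to TNF-α differed between knockdown and control cells was tested by the interaction of both terms, for which limma called no promoter (0%, 766 or 5.65% at an unadjusted p under 0.05), with 1 member under 0.05 before adjustment. Oas2 had the largest value among the members at 13.3 ± 4.67 (SE, limma, unadjusted p = 0.0294, adjusted p = 0.860). It comes from levels of −8.00 and −2.74 that stood at 3.24 and 4.43 after TNF-α in knockdown cells, and of 8.09 and 3.30 that stood at −1.05 and 4.25 in control cells. At the other 7 members the interaction lay between −6.58 ± 5.01 (Oasl2) and 4.18 ± 3.48 (Oas1g).

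**Figure D4:**
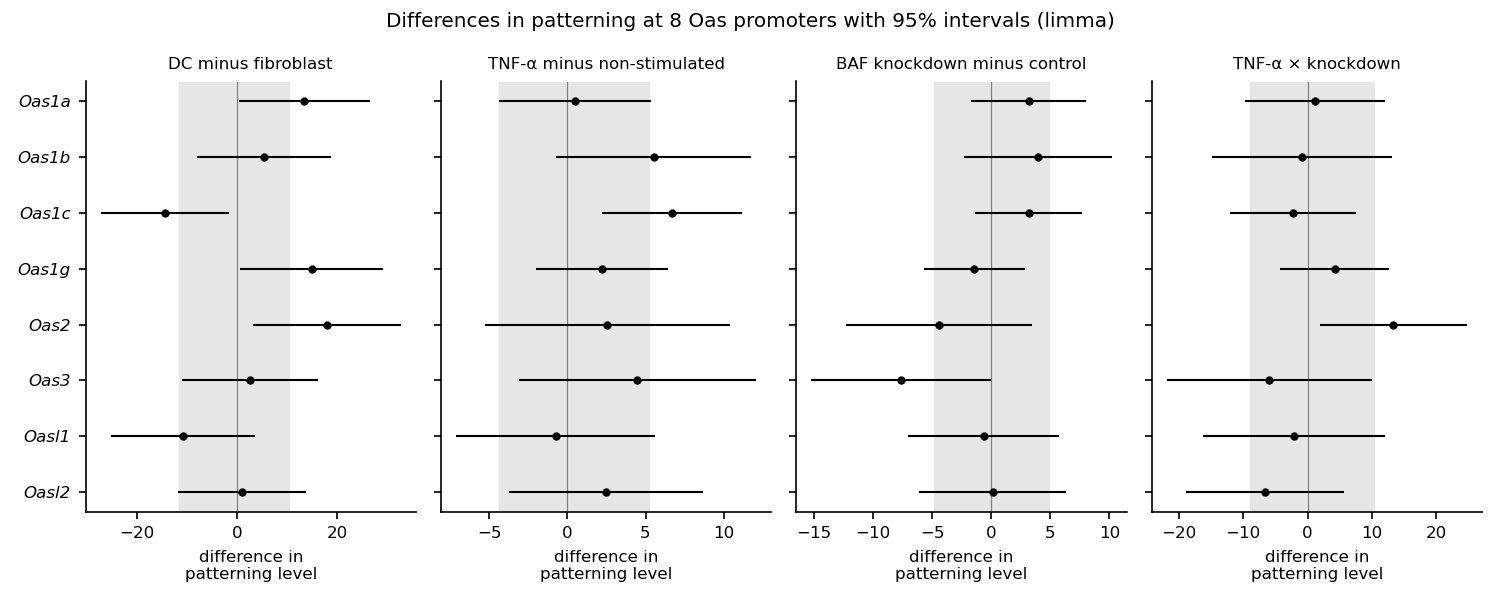
Points are the limma differences in patterning level at the 8 promoters and bars their 95% intervals, before adjustment, for cell type, TNF-α, BAF knockdown and the interaction, and the grey band spans the 10th to 90th percentile of all 13559 covered promoters. Each panel has its own axis, and the largest difference, at Oas2 between cell types, is 17.9.

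In chromatin recovered with antibodies against pol-II from TNF-α-stimulated fibroblasts, the pair of Oas1b and Oas1c again stood high. Oas1b had levels of 9.17 and 13.9 with S7P and 13.9 with S5P, at the 82.2nd, 95.5th and 80.2nd percentile. Oas1c had 15.7 and 18.3 with S7P and 14.7 with S5P. None of the other 6 promoters was above the library's median in all 3 libraries. Oasl2 had a level of 14.1 with S5P, at the 80.98th percentile, and an NDR ratio of 0.072. Its levels with S7P were −4.78 and −1.08. The S5P value rests on 1 library, in which 47.5% of the Oasl2 bins held fragments. Oasl1 had 8.79 in the first S7P library, with fragments in 44.5% of bins, 2.75 in the second and 2.49 with S5P. Fragments were scarce at several of these 6 promoters, down to 20.5% of bins at Oas1a and 23.5% at Oas1g with S5P. Paired-end reads were used for pol-II and single-end reads for H3K4me1, so that read type and antibody cannot be told apart.

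Occupancy at the ISRE was read in the bin at the centre of the matches, divided by the promoter's own mean. At the shared double site of Oas1b and Oas1c it was 0.13 in non-stimulated DCs, 0 after LPS, 0 in non-stimulated fibroblasts and 0.28 after TNF-α. The site thus lay in the empty region in 2 of the 4 sets. Oas2 gave 0.43, 0, 1.00 and 0.39 and Oas3 0.27, 0.44, 0.43 and 0, in the same order. The double sites of Oas1a (1.16, 0.55, 0.67 and 2.30) and Oas1g (1.25, 0.53, 1.01 and 2.20) had nearly equal values in 3 of 4 sets, in sequence that both share. After TNF-α they were the highest of the 6, in the 94.3rd and 93.6th percentile of the 488 covered promoters with an ISRE match. Over those 488 the median was 0.569 to 0.598 in the pooled sets. In the 8 single libraries this bin was empty in 7 at Oas1a and at Oas1g, where it lies in repeated sequence, in 4 at Oas1b and Oas1c and in 1 at Oas2 and at Oas3. It was empty at 31.8% to 46.1% of the 488 promoters in these libraries.

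The 4 other Oas1 genes, all without the ISRE and with expression of at most 0.0331 times the mean in either cell type, gave patterning below the library's median in both DC sets in all 4 cases. Their median was −2.85 in non-stimulated DCs and −1.87 after LPS, beside 7.69 and 10.2 for the 8 members, of which 6 lay above the library's median in each. In fibroblasts the medians were 2.40 and 0.86 for these copies and 1.13 and 5.50 for the members. Repeated sequence made up 30.5% to 76% of their bins, and Oas1f had a coverage score of 71.8, under the limit. These copies were not all silent. Oas1h, at 0.0331 times the mean in DCs, was above the activity threshold there, while Oas1d, Oas1e and Oas1f were listed at 0. The annotated start of Oas1d lay 283 bp from the start of its GENCODE model, so its window for patterning and motifs may be misplaced.

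Other genes of the pathway did not pass any test either. Of 24 genes in 3 lists, 19 had a covered promoter, 11 of those were CpG islands and 4 held an ISRE match. Of the effectors and controls of oligoadenylates, 3 of 5 were covered and none held an ISRE match in the window. Of the sensors of RNA or DNA, 9 of 10 were covered, with Zbp1, a sensor of Z-form nucleic acid, holding 4 ISRE matches and levels of 19.8 and 5.33 in DCs and 12.8 and 6.95 in fibroblasts. Dhx58, a regulator of RIG-I-like sensing, had 17.8 and 19.96 in DCs and 7.35 and 15.01 in fibroblasts. Of the 9 genes from the interferon receptor to its transcription factors, 7 were covered and none held an ISRE match in the window. Over all 3 lists limma called 0 of 19 in each of the 4 comparisons (0% of covered promoters), with an unadjusted p under 0.05 for 1 gene with TNF-α and 1 in the interaction. The median of the 19 was 11.02 in non-stimulated DCs and 9.67 in non-stimulated fibroblasts, against 7.69 and 1.13 for the 8 synthetase promoters.

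Promoters with the most similar profile were sought by Pearson's r over 400 bins, 200 each in non-stimulated DCs and fibroblasts. Apart from the second row at the Oas1b start (r = 0.995, the same window), the closest to Oas1b was Clasrp (0.591) and to Oas1c Zfp961 (0.585). For Oas1a these were Pdzd9 and Apol10a (0.507 and 0.487), and for Oas1g 4930444F02Rik and Stx11 (0.547 and 0.495). Oas2 was closest to Wdr45 and Dnajc1 (0.560 and 0.553) and Oas3 to Utp14b and Spef1 (0.529 and 0.474). Oasl1 had Stx5a and Fam72a (0.578 and 0.574) and Oasl2 Iqsec1 and H2ac7 (0.556 and 0.513). Among the members themselves the highest r was 0.369, between Oas1a and Oas1b. Profiles of the same promoter in the 2 states of DCs correlated at 0.475 (Oasl1) to 0.782 (Oas1g), where the median over all covered promoters was 0.369, and between the 2 replicates of non-stimulated control fibroblasts at 0.073 (Oas3) to 0.466 (Oasl1), with a median of 0.180.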

How the data were processed

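Nucleosome occupancy was taken from 15 ChIP-MNase libraries. The occupancies deposited by the authors are a signal: reads were aligned to mm9 (bowtie in the published methods, Bowtie2 in the submitters' processing notes, which also name bedtools), excess duplicates were removed, and reads were counted in 10 bp bins (single-end H3K4me1 reads after extension, pol-II read pairs if 140 to 180 bp apart), expressed relative to the surrounding 1 kb and averaged over overlapping 50 bp bins. Fragments had to be unique among promoter regions, so near-identical Oas1 sequence can lose reads. Beside coverage, which is a score, the deposited annotation holds expression before stimulation as a score of its own scale in each cell type. Its columns of the authors' differences in array expression upon stimulation were not used. Active promoters therefore include inducible ones here.

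An empty bin was read as 0, and no depth or counting interval can be given. Symbols matched for 24924 promoters (96.3%). Patterning, NDR ratios, +1 positions (peaks without the lowest 20% of prominences) and motif matches were computed with Python 3.11.15, numpy 2.4.6 and scipy 1.17.1, and the 4 comparisons with limma 3.58.1 in R 4.3.3, using Benjamini-Hochberg adjustment at 0.05 over promoters with a score above 100. The limma step was tested on simulated data. The paper lists the replicates as biological, while the labels do not say how they were grown. The p-values measure the spread between these libraries, which may include technical variation. In the cell type test they measure that between the 2 states of a cell type. All members were named, beside 3 pathway lists and the 2 most similar profiles each. Values of some single pathway genes are not reported here. The members and lists were chosen with earlier results of these data known. Alternatives varied scale, filter, measure, template, replicate block and libraries. Repeats, likeness without overlapping windows and the 12U libraries were added after values were seen.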

Additional observations from a re-analysis of the deposited data

How the results depend on the processing

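No comparison had a promoter past the threshold in limma under any of the alternatives run, except that 1 of 6812 promoters, which was none of the 6 Oas members in that test (Oas2 and Oasl2 score lower), was called for the BAF knockdown at a coverage score above 200. Counts of promoters with an unadjusted p under 0.05 ran from 401 to 1854 over the alternatives, against 766 to 1088 in the reported fits. Leaving out 1 library at a time gave 0 calls each time. With the replicate number as a block, 0 promoters were called for knockdown, TNF-α and their interaction, and replicate deviations correlated between groups at 0.00041 to 0.012, so that same-numbered libraries are not treated as pairs. Among members' differences between cell types, 76 alternative values moved by less than the spread between sets and 26 by more, and those of Oas1a, Oas1g and Oas2 kept their sign in each. For the other tests 16 of the interaction values, 4 of the knockdown values and 2 of the TNF-α values moved by more than the spread. Alternatives with square roots, with division by the library mean or with depletion are on other scales than patterning. The counts for the limma tests can therefore partly reflect a change of unit and do not measure robustness alone. For the NDR ratio of the pooled sets 17 of 64 alternative values moved by more, for the +1 position 3 of 32 and for occupancy at the ISRE 0 of 24. NDR ratios of 1 promoter in single libraries scattered widely, reaching 34.6 at Oas1g, and could not be computed in 1 library at Oas1a, which had no flanking fragment. The cause of these changes was not tested. Depth is unknown, so what it limits could not be measured.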
